A study of Mus musculus with 12 samples.

Results

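Liver glucose output and glycogen storage were followed through 9 genes: Pcx, Pck1, Fbp1 and G6pc of gluconeogenesis, and Gys2, Gbe1, Pygl, Ppp1r3b and Ppp1r3c of glycogen metabolism. They were taken by gene symbol, with earlier results of these data known, and each was read from the probe set with the highest mean over the arrays among those that the platform annotation gives to that gene alone. All 9 had such a probe set among the 22180 named genes. RNA came from liver of male C57BL6 mice, and 12 samples were each measured on 1 Affymetrix array. The mice had free access to their diets for 12 weeks, from 6 to 18 weeks of age. The low-fat control group ate a diet with 10% of its energy as fat, and the high-fat control group ate one with 45%. The low-fat MSX and high-fat MSX groups ate the same diets with 0.5% (w/w) of MSX, a maple syrup extract that is enriched in phenols. Each of the 4 groups had 3 arrays, which the labels call biological replicates. The labels name neither a fast before death nor a time of day.

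Gluconeogenesis builds glucose from lactate, amino acids and glycerol. Pyruvate carboxylase (Pcx) opens the route in mitochondria, phosphoenolpyruvate carboxykinase (Pck1) follows in the cytosol, fructose-1,6-bisphosphatase (Fbp1) bypasses glycolysis, and the catalytic subunit of glucose-6-phosphatase (G6pc) releases free glucose. Glycogen is lengthened by liver glycogen synthase (Gys2), branched by the branching enzyme (Gbe1) and broken down by liver glycogen phosphorylase (Pygl). Ppp1r3b and Ppp1r3c encode subunits that bring protein phosphatase 1 to glycogen, where it activates the synthase and inactivates the phosphorylase. In liver, insulin is known to repress Pck1 and G6pc transcription, while glucagon and glucocorticoids induce it.

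Array medians of the deposited log2 values lay between 4.68 and 4.75, and correlations between arrays lay between 0.973 and 0.984. Of the hepatocyte markers, albumin (Alb) lay between 13.88 and 13.95 on the log2 scale and Tat, a hepatocyte aminotransferase, between 12.37 and 13.14. The hepatocyte marker with the lowest mean, Serpina1a, lay between 9.53 and 10.00. Adipoq, a hormone of adipocytes, lay between 2.23 and 2.93. It was the lowest of the measured adipocyte markers. Lep lay between 3.57 and 4.14, Retn between 4.20 and 4.99 and Plin1 between 4.71 and 5.24. The stellate cell markers lay 0.80 above their mean over the arrays in high-fat control replicate 1 (median over 6 genes), and between −0.40 and 0.30 in the other 11 arrays. Between groups, the median of these 6 markers differed by 0.48 for the diet without extract, by −0.53 for the extract on the high-fat diet and by 0.24 for the extract on the low-fat diet. None of the 6 passed an adjusted p under 0.05 by limma there, and 3, 3 and 1 had an unadjusted p under 0.05 in the same order. Of all genes, 6.78%, 6.99% and 8.05% had such an unadjusted p. Other marker lists varied too (medians over genes). Kupffer cell and macrophage markers (6 genes) ran from −0.68 in high-fat control replicate 3 to 0.54 in high-fat control replicate 1. Cholangiocyte markers (4 genes) lay at 0.48 in the latter and between −0.20 and 0.15 elsewhere. Periportal hepatocyte markers (4 genes) lay at −0.13, −0.03 and −0.30 in the high-fat controls and between −0.14 and 0.16 elsewhere. A piece of liver holds several cell types, so that fewer hepatocytes and less RNA per hepatocyte cannot be told apart.

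None of the 9 genes passed an adjusted p under 0.05 in any of 7 comparisons with limma, Benjamini-Hochberg adjusted over all 22180 genes. The 7 were the diet effect without and with extract, the extract effect on either diet, the difference of both extract effects, and the average diet and extract effects. The background of such calls was low in each comparison. It was 0.018% of all genes for the diet effect without extract, 0.0361% for the extract on the high-fat diet and 0.158% for the extract on the low-fat diet. It was 0% for the diet effect with extract and for the difference of extract effects, 0.0225% for the average diet effect and 0.261% for the average extract effect. The values closest to the threshold were those of Pygl (average extract effect, adjusted p = 0.0592, and extract on the low-fat diet, adjusted p = 0.0646) and Gys2 (average diet effect, adjusted p = 0.0976). All differences below are in log2 units, first-named group minus second, with the moderated SE of limma, and n = 3 per group. With the limma fit that lets the prior variance depend on signal, 5 of these 63 tests passed, for Gys2 and Pygl. They are named at their results.

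The promoters of Pck1 and G6pc are shown because these genes had nearly the same order of arrays, as described further on. The 250 bases before the RefSeq start of each gene in build GRCm38.p6 are written 5′ to 3′, with 4 motifs in capitals. These are TTACGTNA, a sequence like a cAMP response element, TCCAAAG, the forkhead-type TGTTTTG, and the TATA box TATAAA.
Pck1 promoter, chr2:173152823-173153072, + strand: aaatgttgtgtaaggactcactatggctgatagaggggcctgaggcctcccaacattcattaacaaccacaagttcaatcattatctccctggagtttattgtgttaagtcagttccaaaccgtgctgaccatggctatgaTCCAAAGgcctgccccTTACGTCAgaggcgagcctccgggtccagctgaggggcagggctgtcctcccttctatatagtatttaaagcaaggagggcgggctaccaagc
G6pc promoter, chr11:101367466-101367715, + strand: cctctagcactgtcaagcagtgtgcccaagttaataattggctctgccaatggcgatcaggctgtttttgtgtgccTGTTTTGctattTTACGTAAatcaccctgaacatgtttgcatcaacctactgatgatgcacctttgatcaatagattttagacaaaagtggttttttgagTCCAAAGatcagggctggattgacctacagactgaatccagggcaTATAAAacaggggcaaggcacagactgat
Within these bases, TTACGTNA began 93 bases before the start of Pck1 and 162 bases before that of G6pc. It occurred on either strand in 0.788% of the 32851 promoters in the RefSeq table. TCCAAAG began 109 bases before the start of Pck1 and 74 bases before that of G6pc, and 4.7% of promoters held it. TGTTTTG was in the G6pc window, 174 bases before the start, and not in that of Pck1, and 5.56% of promoters held it. The TATA box letters were likewise in the G6pc window alone of the pair, 29 bases before the start, and 12.4% of promoters held them. The motifs were chosen after the sequences had been read. Of the 9 genes, 7 had an entry, with 8 promoters. Among these 8, TTACGTNA was found for Pck1 and G6pc, TCCAAAG also for 1 promoter of Pcx, and CACGTG, an E-box found in 6.02% of all promoters, for Ppp1r3c and for 1 promoter of Pcx. TGACG, the shorter core of a cAMP response element, was in those of Pck1 and Pygl (17.8% of all promoters). Its match in Pck1 lies inside TTACGTCA. TGTTTNC was in the window of G6pc (17.8% of all promoters), and AGAACA in no window (16.1% of all promoters). A match is a string of letters and was not tested as a binding site.

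The comparison of high-fat with low-fat control addressed the diet alone, and in it Gys2, G6pc and Pck1 had the lowest differences of the 9 genes. G6pc was at 11.51, 11.46 and 10.89 in the low-fat controls and at 10.61, 10.95 and 10.23 in the high-fat controls. The ranges of these groups overlapped by a single pair of arrays, low-fat replicate 3 and high-fat replicate 2. The difference was −0.69 (SE 0.24, adjusted p = 0.586), which puts the high-fat level at 62.1% of the low-fat one (95% interval of the log2 difference from −1.20 to −0.17, not adjusted). Pck1 was at 12.87, 12.77 and 12.57 in the low-fat controls and at 12.33, 12.60 and 12.33 in the high-fat controls. It had a smaller difference of −0.31 (SE 0.14, adjusted p = 0.709), with 1 overlapping array on each side as for G6pc. Fbp1 and Pcx, the other enzymes of the route, were at −0.03 (SE 0.11) and 0.07 (SE 0.13). Without high-fat control replicate 1 the Pcx value was 0.0006. The Fbp1 value ran from −0.0726 to 0.0138 with single arrays left out, so that neither gene is given a direction.

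With extract in both diets Pck1 and G6pc again had values below 0, this time without overlap. G6pc was at 10.98, 11.21 and 11.85 in low-fat MSX and at 10.68, 10.49 and 10.81 in high-fat MSX, and the difference was −0.68 (SE 0.24, adjusted p = 0.999). Every low-fat MSX array lay above every high-fat MSX array, and low-fat MSX replicate 3 was the highest of all 12. Pck1 was at 12.65, 12.72 and 12.83 in low-fat MSX and at 12.40, 12.25 and 12.64 in high-fat MSX, with a difference of −0.30 (SE 0.14, adjusted p = 0.999). High-fat MSX replicate 3 came close to the low-fat arrays. Without low-fat MSX replicate 3 the G6pc difference was −0.43. The groups of this comparison share no array with the control comparison, but the SEs of both come from 1 spread per gene over all 12 arrays. Averaged over both extract states, the diet difference was −0.68 for G6pc (SE 0.17, adjusted p = 0.439, rank 65 of all genes by p) and −0.31 for Pck1 (SE 0.10, adjusted p = 0.645, rank 225).

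The extract differences of Pck1 and G6pc lay close to 0 on either diet. On the high-fat diet the differences were 0.00 for Pck1 (95% interval from −0.29 to 0.30) and 0.06 for G6pc (from −0.45 to 0.58). On the low-fat diet they were −0.01 (from −0.30 to 0.29) and 0.06 (from −0.45 to 0.57). The signs of these 4 values changed with single arrays left out, so that no direction is given. The intervals of G6pc are the wider ones and hold differences of up to 0.58 above 0.

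Pck1 and G6pc followed each other across the arrays. Over all 12 the Pearson correlation was 0.92 and the Spearman correlation 0.97, and G6pc was the gene with the highest correlation to Pck1 among all named genes. Without the 2 arrays farthest from the Pck1 median, high-fat MSX replicate 2 and high-fat control replicate 3, Pearson's r was 0.89. After subtraction of the group means it was 0.79, so that arrays of 1 group that were high in Pck1 tended to be high in G6pc. The arrays share their hybridization and normalization between both genes, and these correlations are descriptions without a test. Gfra1, a receptor subunit for glial cell line-derived neurotrophic factor, was also near both genes, with r of 0.95 to G6pc and 0.89 to Pck1. Asl, argininosuccinate lyase of the urea cycle, had r of 0.91 to G6pc. Snupn, an import adaptor for small nuclear ribonucleoproteins, was lowest for both, at −0.91 to Pck1 and −0.92 to G6pc. Pygl ran opposite to Pck1 within groups, with r of −0.84 after subtraction of the group means and −0.27 over all 12 arrays. Without the 2 arrays whose Pck1 lay farthest from its group's level, the first of these values was −0.70.

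**Figure D1:**
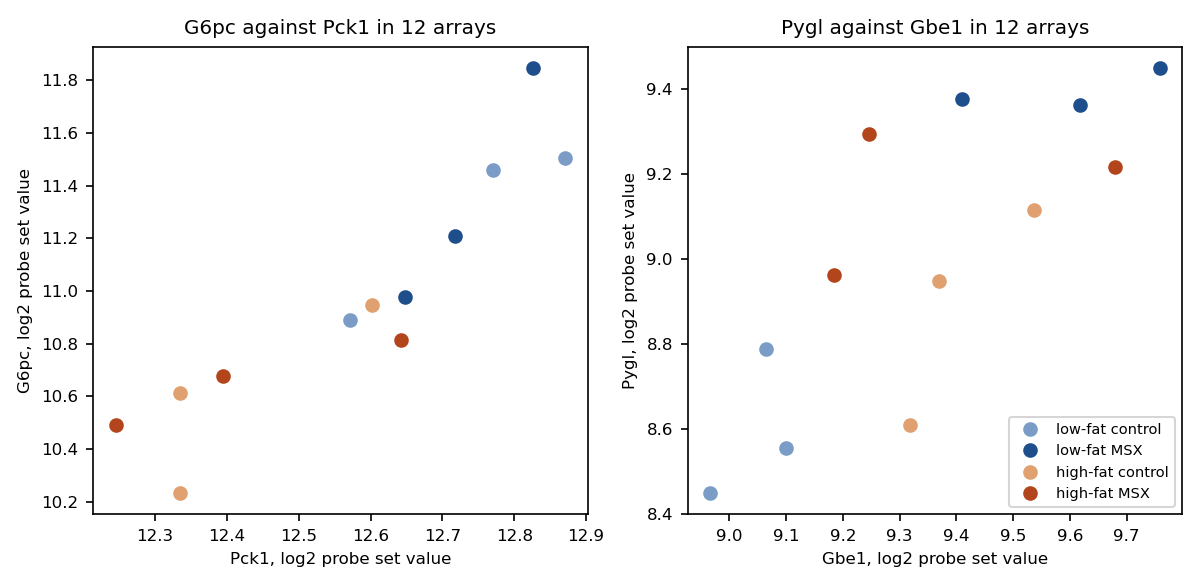
Log2 probe set values of G6pc against Pck1 and of Pygl against Gbe1, with 1 point per array (12 arrays) coloured by group. The 4 arrays lowest in Pck1 are high-fat arrays and also the lowest in G6pc (r = 0.92), and the 3 low-fat MSX arrays are the highest in Pygl (r = 0.79 with Gbe1).

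Fbp1 had the smallest range over the arrays of the 9 genes, 0.42 log2 units. It was at 11.75, 11.74 and 11.62 in low-fat control, at 11.93, 11.81 and 11.87 in low-fat MSX, at 11.73, 11.70 and 11.58 in high-fat control and at 11.72, 11.58 and 11.50 in high-fat MSX. Its 3 low-fat MSX arrays were the highest of all 12, with the lowest of them at 11.81 and the next array at 11.75. Of all genes, 0.631% had the low-fat MSX arrays as their 3 highest. Low-fat MSX lay 0.17 above low-fat control (SE 0.11, adjusted p = 0.732), and high-fat MSX differed from low-fat MSX by −0.27 (SE 0.11, adjusted p = 0.999).

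Pcx, the entry enzyme, was lower with extract on both diets. It was at 10.40, 10.48 and 10.36 in low-fat control and at 10.30, 10.32 and 10.01 in low-fat MSX. On the high-fat diet it was at 10.63, 10.42 and 10.41 in control and at 10.20, 9.97 and 10.24 in MSX. All 6 MSX arrays lay below all 6 control arrays. Such a separation of 6 from 6 occurred in 1.09% of all genes, or 0.455% with the MSX arrays lower, and Pcx was the 1 of the 9 genes that showed it. The differences were −0.35 on the high-fat diet (SE 0.13, adjusted p = 0.639) and −0.21 on the low-fat diet (SE 0.13, adjusted p = 0.722). Without low-fat MSX replicate 3, the lowest array of its group, the low-fat difference was −0.11. The average of both was −0.28 (SE 0.09, adjusted p = 0.298), which is 82.5% of the control level. Slc16a7, a monocarboxylate transporter, had the pattern most like it (r = 0.94 over 12 arrays), and Adh6-ps1, a pseudogene of an alcohol dehydrogenase, was the farthest from it (r = −0.96).

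Gys2, the synthase of liver glycogen, was lowest in the high-fat controls and higher in each other group. Its values were 10.67, 10.65 and 10.77 in high-fat control, against 11.52, 11.45 and 11.20 in low-fat control. They were 11.33, 11.09 and 11.23 in high-fat MSX and 11.55, 11.45 and 11.59 in low-fat MSX. The 3 high-fat controls were the lowest of the 12 arrays, with 10.77 as their highest value and 11.09 as the lowest value elsewhere. Of all genes, 0.735% had the high-fat controls as their 3 lowest arrays. The order of the other groups is less clear, since low-fat control overlapped with low-fat MSX and with high-fat MSX.

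High-fat control differed from low-fat control in Gys2 by −0.69 (SE 0.12, adjusted p = 0.102, rank 12 by p), at 61.8% of the low-fat level. With a prior variance that depends on signal the adjusted p was 0.0114, and without the genes of below-median signal it was 0.0282, both past the threshold. Over the 10 alternatives that keep all arrays of the comparison it ranged from 0.0114 to 0.326. Leaving out single arrays gave differences between −0.79 and −0.63. On the high-fat diet, MSX differed from control by 0.52 (SE 0.12, adjusted p = 0.272, rank 56), a 1.44-fold higher level, and all 3 MSX arrays lay above all 3 controls. On the low-fat diet the extract difference was 0.14 (SE 0.12, adjusted p = 0.813), and 0.0419 without low-fat control replicate 3. The difference between both extract effects was 0.38 (SE 0.17, unadjusted p = 0.0398, adjusted p = 0.955), so that a dependence on diet was not shown. With extract in both diets, high-fat lay at −0.31 against low-fat (SE 0.12, adjusted p = 0.999). The average diet difference was −0.50 (SE 0.08, adjusted p = 0.0976), and adjusted p was 0.0118 with the prior variance dependent on signal and 0.0241 without genes of below-median signal (0.0118 to 0.309 over 9 alternatives). The average extract difference was 0.33 (SE 0.08, adjusted p = 0.162, and 0.0403 to 0.324 over 9 alternatives, the lowest with the prior variance dependent on signal).

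Beside Gys2, the hepatocyte markers lay at −0.13, 0.02 and −0.12 from their mean over the arrays in the high-fat controls (median over 8 genes), and between −0.04 and 0.06 in the other arrays. Their part in the Gys2 difference was not tested. The range of the Gys2 difference with single arrays left out had its ends at low-fat controls, −0.79 without replicate 3 and −0.63 without replicate 1. Those fits do not address the markers, which were low in high-fat control replicates 1 and 3 alike. Abcg5, part of a sterol exporter, was the gene most like Gys2 over the 12 arrays (r = 0.91), followed by Olfr1318, an olfactory receptor gene with a mean value of 1.92, and Aqp11, an aquaporin (both r = 0.89). Gys2 itself had r of 0.68 with Pck1 and 0.70 with G6pc over all arrays, and 0.48 and 0.41 after subtraction of the group means. Without the 2 arrays whose Gys2 lay farthest from its group's level, these last values were 0.01 and 0.09.

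**Figure D2:**
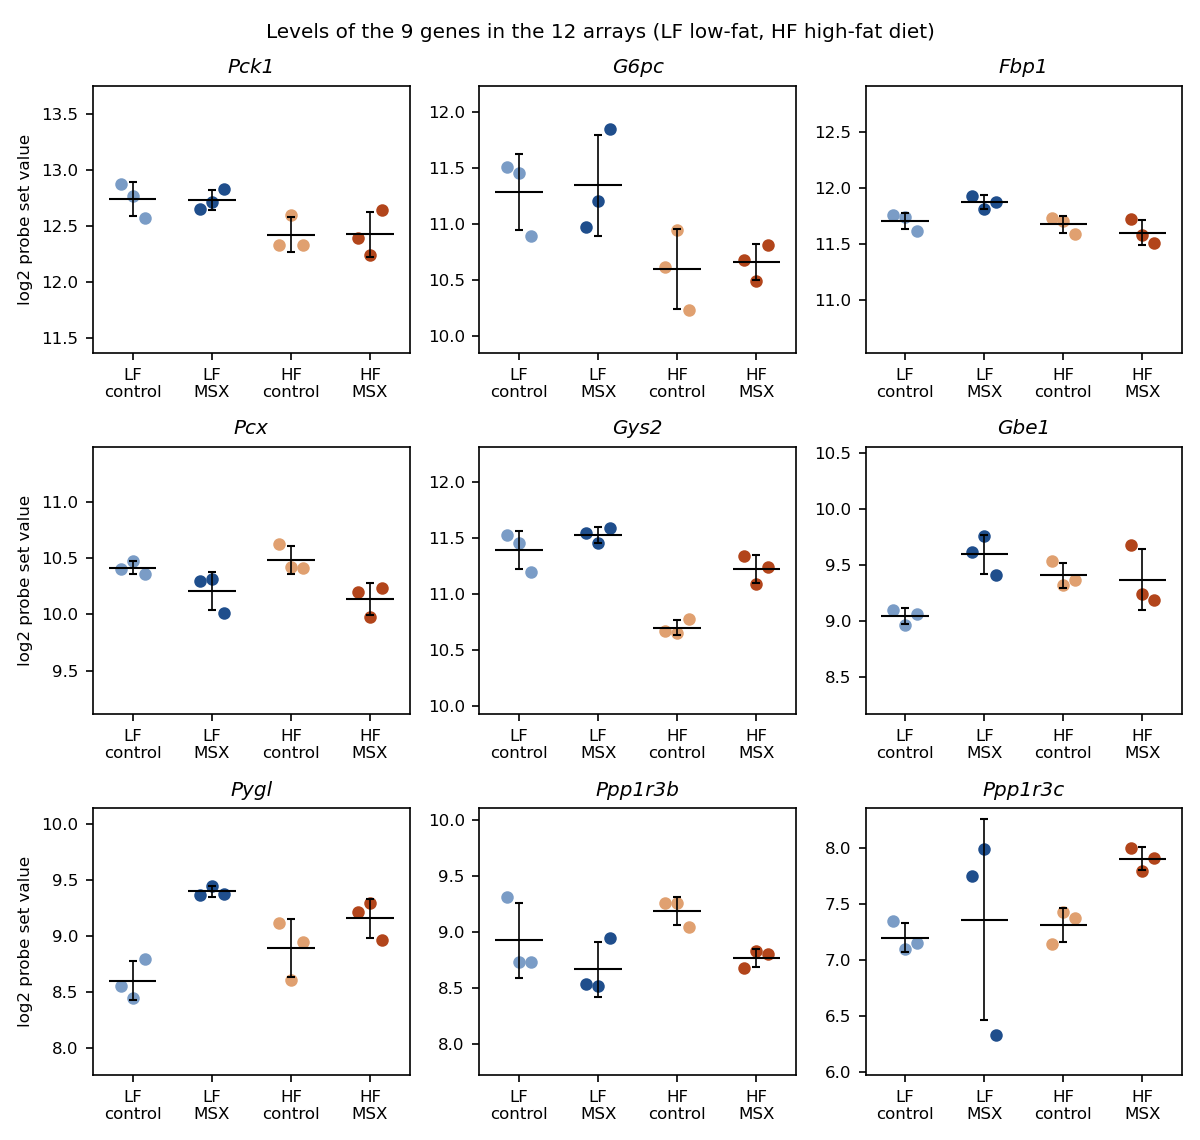
Log2 probe set values of the 9 genes in the 12 arrays, by group, with each array as a point, the mean as a bar and ± 1 SD as an error bar. Panels span equal ranges of log2 units around their own centres. Gys2 is lowest in the 3 high-fat controls, Pygl is highest in the 3 low-fat MSX arrays, and 1 low-fat MSX array lies far below the others in Ppp1r3c.

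Pygl, the enzyme that releases glucose units from glycogen, was highest with extract on the low-fat diet. It was at 9.36, 9.45 and 9.38 in low-fat MSX and at 8.56, 8.45 and 8.79 in low-fat control. The high-fat arrays were at 9.12, 8.61 and 8.95 in control and at 9.22, 9.29 and 8.96 in MSX. High-fat control replicate 2 lay within the low-fat control range, and the other high-fat arrays lay between the low-fat groups. All 3 low-fat MSX arrays exceeded all other 9, as in 0.631% of all genes. High-fat control and low-fat control overlapped, and so did high-fat control and high-fat MSX.

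Low-fat MSX differed from low-fat control in Pygl by 0.80 (SE 0.15, adjusted p = 0.0646, rank 39), a 1.74-fold higher level with a 95% interval of the log2 difference from 0.48 to 1.12. The threshold was passed with the prior variance dependent on signal (adjusted p = 0.0153), without genes of below-median signal (0.0213) and with array quality weights (0.0377). Over the 10 alternatives the adjusted p ranged from 0.0153 to 0.213, and leaving out single arrays gave differences from 0.72 to 0.89. On the high-fat diet the extract difference was 0.27 (SE 0.15, adjusted p = 0.775), and it was 0.13 without high-fat control replicate 2. The difference between both extract effects was −0.53 (SE 0.21, unadjusted p = 0.0243, adjusted p = 0.955). The average extract difference was 0.53 (SE 0.10, adjusted p = 0.0592, and 0.0135 to 0.184 over 9 alternatives). It passed with 4 of these, namely the prior variance dependent on signal (0.0135), no genes of below-median signal (0.0201), array quality weights (0.0247) and median-centred arrays (0.0478). It also passed without high-fat control replicate 1, where it was 0.59 with adjusted p = 0.0437. The diet difference was 0.29 without extract (SE 0.15) and −0.24 with extract (SE 0.15), and its average was 0.03. Without high-fat control replicate 1 the first of these values was 0.18 and the average −0.0292, and without high-fat MSX replicate 3 the second was −0.14. Beside the Pygl difference on the low-fat diet, the stellate cell markers lay at −0.34, −0.21 and −0.05 from their means in the low-fat controls and at 0.09, −0.00 and 0.30 in low-fat MSX, without overlap. All 6 of these markers were above 0 in that comparison, with Lrat, a retinol-esterifying enzyme of stellate cells, at 0.76 (SE 0.18, adjusted p = 0.196). Their part in the Pygl and Gbe1 differences was not tested. Dipk1a, a kinase-like protein gene, and Khk, ketohexokinase of fructose breakdown, were most like Pygl over the arrays (r = 0.94 and 0.93). Retsat, retinol saturase, ran opposite (r = −0.94).

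Gbe1, the branching enzyme, was lowest in low-fat control. It was at 9.10, 8.97 and 9.06 there, below all other 9 arrays, as in 0.771% of all genes. It was at 9.62, 9.76 and 9.41 in low-fat MSX, at 9.54, 9.32 and 9.37 in high-fat control and at 9.68, 9.25 and 9.18 in high-fat MSX. These 3 groups overlapped with one another. The extract difference on the low-fat diet was 0.55 (SE 0.14, adjusted p = 0.259), a 1.47-fold higher level, and on the high-fat diet it was −0.04 (SE 0.14, adjusted p = 0.99). The difference between both effects was −0.59 (SE 0.20, unadjusted p = 0.0128, adjusted p = 0.955). High-fat control lay 0.36 above low-fat control (SE 0.14, adjusted p = 0.666). Gbe1 and Pygl had r of 0.79 over the 12 arrays, 0.65 without the 2 arrays farthest from the Gbe1 median, and 0.46 after subtraction of the group means. Pmvk, phosphomevalonate kinase of cholesterol synthesis, and Slc17a4, an anion transporter, were most like Gbe1 (r = 0.95 and 0.93).

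The phosphatase targeting subunits lay on opposite sides of 0 for the extract on the high-fat diet. Ppp1r3b was at 9.26, 9.27 and 9.05 in high-fat control and at 8.68, 8.83 and 8.80 in high-fat MSX, with no overlap and a difference of −0.42 (SE 0.17, adjusted p = 0.658). On the low-fat diet it was at 9.32, 8.74 and 8.74 in control and at 8.54, 8.52 and 8.95 in MSX, where the groups overlapped. That difference was −0.26 (SE 0.17, adjusted p = 0.737), and −0.07 without low-fat control replicate 1, the highest array of all 12. The other probe set of Ppp1r3b had −0.43 on the high-fat and −0.22 on the low-fat diet. The diet difference without extract depended on the probe set, at 0.26 in the brighter one and 0.00 in the other. With extract it was 0.10 and −0.21 in the same order, so that no direction of the diet effect is given for this gene.

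Ppp1r3c was at 7.14, 7.43 and 7.37 in high-fat control and at 7.996, 7.79 and 7.91 in high-fat MSX, again with no overlap. The difference was 0.59 (SE 0.31, adjusted p = 0.757), or 1.5-fold. Its SE draws on the spread of all 4 groups, low-fat MSX included. Within high-fat control and high-fat MSX the SDs were 0.15 and 0.10. On the low-fat diet Ppp1r3c was at 7.35, 7.10 and 7.15 in control and at 7.75, 7.99 and 6.33 in MSX. Low-fat MSX replicate 3 was the lowest of all 12 arrays and the other 2 of its group were above every control, which gave an SD of 0.90 in that group. The low-fat difference of 0.16 (SE 0.31, adjusted p = 0.931) was 0.67 without that array (adjusted p = 0.145) and −0.16 without replicate 2. The average extract difference was 0.37 (SE 0.22, adjusted p = 0.631), 0.63 without low-fat MSX replicate 3 (adjusted p = 0.0173) and 0.21 without low-fat MSX replicate 2 (adjusted p = 0.819). In low-fat MSX replicate 3 G6pc was at its highest and Fbp1 was close to its group's mean. Within its group, that array was also the highest in Pck1, Gys2 and Ppp1r3b and the lowest in Pcx and Gbe1, and it lay between the others in Pygl. Mrpl49, a mitochondrial ribosomal protein gene, and Nr0b2, a nuclear receptor corepressor, were most like Ppp1r3c (r = 0.95 and 0.92).

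**Figure D3:**
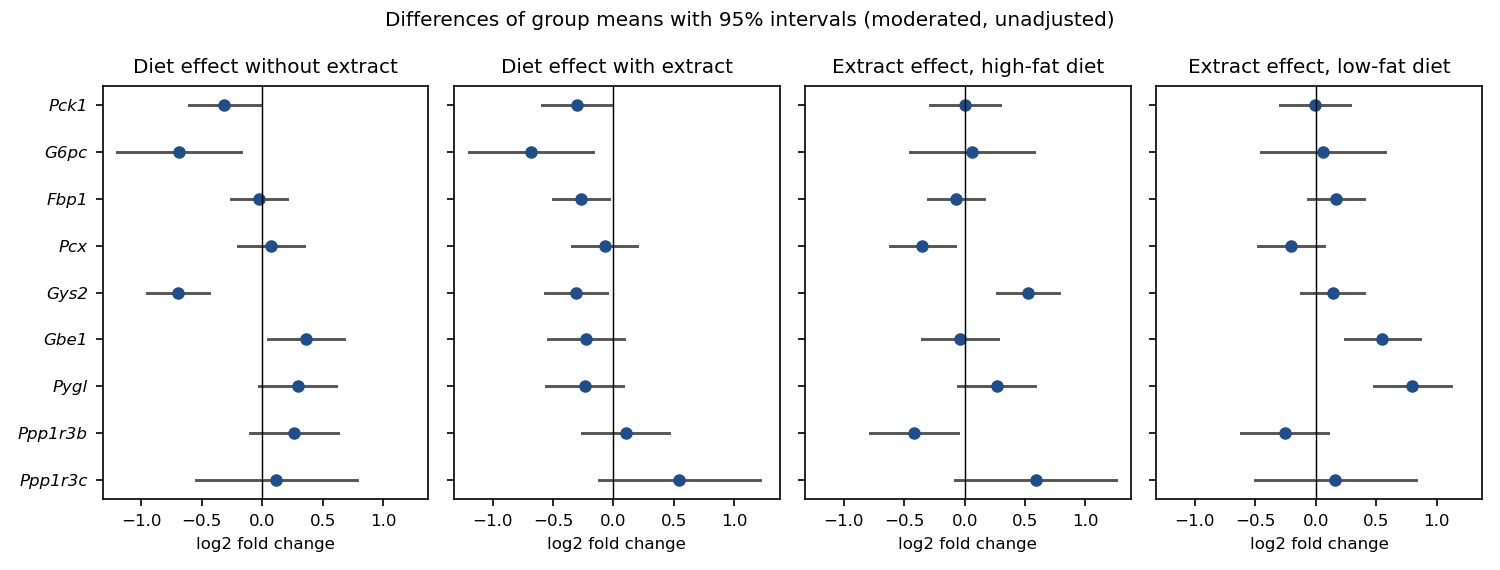
Differences of group means for the 9 genes in 4 comparisons, as points on the horizontal log2 scale, with 95% intervals of the moderated fit that are not adjusted for the number of genes. Intervals of Gys2 lie away from 0 in 3 panels, and those of Pygl and Gbe1 above 0 in the panel of the extract on the low-fat diet.

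Counts of members were set beside those of all genes. At an unadjusted p under 0.05, 4 of 9 passed for the diet without extract (Gys2, G6pc and Pck1 lower, Gbe1 higher), against 6.78% of all genes. For the diet with extract 4 of 9 passed, all lower (G6pc, Gys2, Fbp1 and Pck1), against 4.56%, or 2.18% in that direction. For the extract on the high-fat diet 3 of 9 passed (Gys2 higher, Pcx and Ppp1r3b lower), against 6.99%, and on the low-fat diet 2 of 9 (Pygl and Gbe1, both higher), against 8.05%, or 4.03% in that direction. For the difference of extract effects 3 of 9 passed (Gys2 above 0, Gbe1 and Pygl below 0), against 5.09%. For the average diet effect 3 of 9 passed (Gys2, G6pc and Pck1, all lower), against 5.94%, or 3.06% in that direction. For the average extract effect 5 of 9 passed (Pygl, Gys2 and Gbe1 higher, Pcx and Ppp1r3b lower), against 9.66%. The genes were chosen with earlier results of these data known, some of them vary together, and comparisons share groups, so that these counts are descriptions.

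Groups of 3 did not overlap in 2 of 9 genes for the diet without extract (Gys2 lower, Gbe1 higher), against 11.4% of all genes. With extract it was 5 of 9, all lower on the high-fat diet (Pck1, G6pc, Fbp1, Gys2 and Pygl), against 9.44%, or 4.76% in that direction. For the extract on the high-fat diet it was 4 of 9 (Gys2 and Ppp1r3c higher, Pcx and Ppp1r3b lower), against 12.2%. On the low-fat diet it was 4 of 9 (Pygl, Gbe1 and Fbp1 higher, Pcx lower), against 13.9%. Over the 6 high-fat and 6 low-fat arrays, 0 of 9 were separate, against 0.325% of all genes. The medians over the 9 genes were 0.07, −0.24, 0.00 and 0.14 in these 4 comparisons, in the same order, and those over all genes lay between −0.00 and 0.01.

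Other genes of the route were taken from 6 lists, written from general knowledge but with earlier results of these data known. Of 20 further genes of gluconeogenesis and fuel entry, 0 passed the adjusted threshold in any of the 7 comparisons by limma, and between 0 and 4 had an unadjusted p under 0.05 in each. Among all genes the share with such an unadjusted p was between 4.56% and 9.66%, depending on the comparison. Slc37a4, the transporter that carries glucose-6-phosphate to G6pc, was at 10.07, 10.10 and 10.10 in low-fat MSX against 9.81, 9.27 and 9.16 in low-fat control. All 3 MSX arrays were above the controls there, and likewise on the high-fat diet, at 9.65, 9.61 and 9.69 against 9.21, 9.38 and 9.30. The average extract difference of Slc37a4 was 0.52 (SE 0.10, adjusted p = 0.0635), with 0.68 on the low-fat and 0.35 on the high-fat diet. Slc2a2, the glucose transporter GLUT2 of hepatocytes, had an average extract difference of 0.38 (SE 0.11, adjusted p = 0.205). Slc25a10, a mitochondrial dicarboxylate carrier, had all 6 MSX arrays below all 6 controls, with an average difference of −0.43 (SE 0.08, adjusted p = 0.056). Got1, an aspartate aminotransferase of the shuttle that supplies gluconeogenesis, had an average diet difference of −0.90 (SE 0.14, adjusted p = 0.0896). Pck2, the mitochondrial isoform of Pck1, was at 6.16, 5.55 and 5.64 in high-fat control and at 5.59, 5.69 and 5.53 in low-fat control. High-fat control replicate 1 was above all other 11 arrays, and the other high-fat controls lay within the low-fat range, so that no diet difference is given. With extract on the low-fat diet Pck2 was at 0.05 (SE 0.15).

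Of 21 further genes of glycogen handling, 0 passed the adjusted threshold in any comparison by limma, and between 0 and 3 had an unadjusted p under 0.05. Such an unadjusted p was reached by 4.56% to 9.66% of all genes, depending on the comparison. Gaa, the lysosomal glucosidase of glycogen, had an extract difference of −0.48 on the low-fat diet (SE 0.13, adjusted p = 0.269). Pgm2, a phosphoglucomutase-family enzyme, lay 0.41 higher with the high-fat diet (SE 0.16, adjusted p = 0.663). Ppp1r3e, another phosphatase targeting subunit, was at −0.43 for the diet with extract (SE 0.13, adjusted p = 0.977). Ugp2, which makes UDP-glucose for the synthase, had an average extract difference of 0.20 (SE 0.11), Gys1, the muscle-type synthase, 0.05 (SE 0.09), and Gsk3b, a kinase that inactivates the synthase, −0.02 (SE 0.09). The list median lay between −0.02 and 0.05 in the 7 comparisons.

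Hormone receptors and insulin signalling held 16 measured genes, and transcription factors and cofactors of gluconeogenic genes held 22. None of either list passed the adjusted threshold by limma in the 7 comparisons, and between 0 and 1 of the first and 0 and 4 of the second had an unadjusted p under 0.05. Between 4.56% and 9.66% of all genes had such an unadjusted p, depending on the comparison. Irs2, an insulin receptor substrate, was at 7.46, 7.86 and 7.83 in low-fat control and at 7.27, 7.47 and 7.08 in high-fat control. It was at 7.91, 8.09 and 7.75 in high-fat MSX, above all high-fat controls, with a difference of 0.64 (SE 0.19, adjusted p = 0.527). Its low-fat MSX arrays spread from 7.45 to 8.22. Ppargc1a, a coactivator known to induce Pck1 and G6pc, was at 7.43, 6.50 and 6.98 in high-fat MSX and at 7.81, 7.70 and 7.43 in high-fat control (difference −0.68, SE 0.22, adjusted p = 0.567), where the groups met at 7.43. Its paralogue Ppargc1b was at 0.39 in the same comparison (SE 0.12, adjusted p = 0.535). Foxo1, a forkhead factor of gluconeogenic genes, had a diet difference of −0.15 (SE 0.12), and Gcgr, the glucagon receptor, and Insr, the insulin receptor, were at −0.07 (SE 0.13) and −0.04 (SE 0.12).

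Of 14 fasting and glucocorticoid targets in hepatocytes, 1 fell and 0 rose with extract on the low-fat diet, and 2 fell and 0 rose in the average extract effect. Among all genes, 0.158% and 0.261% passed the adjusted threshold in these 2 comparisons. The liver hormone Fgf21 fell on the low-fat diet (difference −1.51, SE 0.27, adjusted p = 0.0492 by limma) and on average (difference −1.12, SE 0.19, adjusted p = 0.023). Pdk4, a kinase that restrains pyruvate oxidation, fell in the average extract effect (difference −1.20, SE 0.17, adjusted p = 0.00925). Lpin1, a phosphatidate phosphatase of lipid synthesis, had the largest difference of the list on the low-fat diet, in the other direction, at 1.86 (SE 0.37, adjusted p = 0.0842, groups not overlapping). The list median was 0.03 on the low-fat diet and −0.04 on average. Tat and Igfbp1, classical targets of fasting hormones, had average extract differences of 0.10 (SE 0.13) and −0.04 (SE 0.33). Of 15 feeding and insulin-induced genes, 3 rose and 0 fell with extract on the low-fat diet (Fasn, Thrsp and Insig1), against 0.158% of all genes called. Of these 15 genes, 14 lay above 0, with a median of 0.85. In the average extract effect 1 rose, Insig1 (difference 0.90, SE 0.14, adjusted p = 0.0135). On the high-fat diet 0 of 15 passed by limma, against 0.0361% of all genes. There 1 had an unadjusted p under 0.05, against 6.99% of all genes, and the median was 0.10. The list calls on the low-fat diet depended on single arrays: with each of 6 arrays left out in turn, Fgf21 passed in 0 of 6 fits, Thrsp in 1, Insig1 in 2 and Fasn in 3. For the average extract effect, with each of 12 arrays left out, Pdk4 passed in 12 of 12, Insig1 in 11 and Fgf21 in 7. Lists are described by counts, and whether a list differs from other genes was not tested here.

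**Figure D4:**
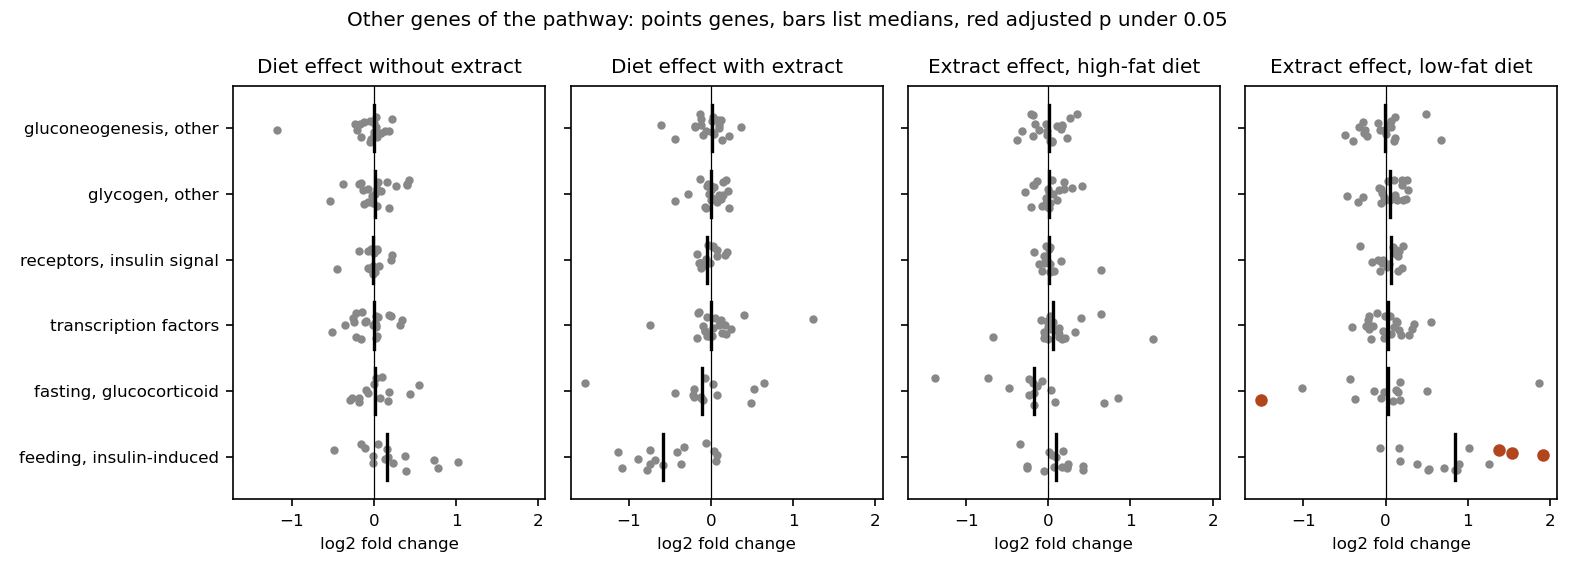
Log2 fold changes of the measured genes of 6 lists in 4 comparisons, with 1 point per gene, a bar at the list median and red points for adjusted p under 0.05. Feeding and insulin-induced genes have a median of 0.85 with extract on the low-fat diet and 0.10 on the high-fat diet, and the lists of other gluconeogenic and glycogen genes lie around 0.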

How the data were processed

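RNA from 12 livers was measured on Affymetrix arrays. The authors deposited log2 probe set values. Per the submitters' processing notes, the tool was the Transcriptome Analysis Console; no source used here names its version, normalization or summarization. Of 41345 probe sets, 23521 had 1 gene symbol in the platform annotation, and the probe set of highest mean was kept for each of 22180 genes. The annotation holds no single-symbol probe set for 2 of 15 further panel genes, which are not used here.

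Group means were fitted with limma 3.58.1 in R 4.3.3 (lmFit, eBayes, two-sided, 8 residual and 5.18 prior degrees of freedom), all 4 groups sharing 1 spread per gene, with Benjamini-Hochberg adjustment over all genes and a threshold of 0.05. The number of arrays limits precision. For 3 arrays against 3, the lowest p that exact permutation reaches is 0.1. Of the 9 genes, 7 had a promoter in the RefSeq table of build GRCm38.p6. The procedure was tested on simulated data. Members and lists were chosen with earlier results of these data known. Named genes were the 9 members, a fixed panel, list genes past the threshold or of lowest p, and genes of highest or lowest correlation with a member; a part of them is printed. Alternatives covered probe set choice, a filter on dim genes, normalization, variance model, a replicate block and single arrays left out.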

Additional observations from a re-analysis of the deposited data

How the results depend on the processing

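The count of members past the threshold was 0 in each of 7 comparisons and stayed 0 in 56 of 67 checks with all arrays kept. Without genes of below-median signal it was 1 for the diet without extract, the extract on the low-fat diet, the diet on average and the extract on average. With the prior variance dependent on signal it was 1, 1, 1 and 2 in the same order. With array quality weights it was 1 for the extract on the low-fat diet and 1 for the average extract effect, and with arrays centred on their medians it was 1 for the average extract effect. With arrays left out it ranged from 0 to 1 for the average extract effect and was 0 in the other comparisons. The genes concerned were Gys2, Pygl and, without low-fat MSX replicate 3, Ppp1r3c; fewer genes were tested in the first setting, and the cause of the others was not tested.

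Signs turned for values near 0. With quantile normalization Pck1 was −0.0226 for the extract on the high-fat diet and G6pc −0.0273 for the difference of extract effects. With median centring Pck1 was 0.0192 for the extract on the low-fat diet and 0.0208 on average, and G6pc −0.0039 for the difference of extract effects. With array weights Pck1, G6pc and Gbe1 were −0.0569, −0.0074 and 0.049 for the extract on the high-fat diet, G6pc was −0.082 on the low-fat diet and −0.0447 on average, Pck1 was −0.0065 for the difference of extract effects and Pcx −0.0245 for the average diet effect. With the mean of both probe sets Ppp1r3b was −0.0549 for the diet with extract.
With single arrays left out, signs turned within these ranges. For the diet without extract, values ran for Fbp1 from −0.0726 to 0.0138. For the extract on the low-fat diet, values ran for Pck1 from −0.0894 to 0.0601, G6pc from −0.19 to 0.24 and Ppp1r3c from −0.16 to 0.67. For the difference of extract effects, values ran for Pck1 from −0.0966 to 0.10, G6pc from −0.18 to 0.25 and Ppp1r3c from −0.0858 to 0.75. For the average diet effect, values ran for Pcx from −0.0493 to 0.0416, Pygl from −0.0292 to 0.0976 and Gbe1 from −0.008 to 0.12. For the average extract effect, values ran for Pck1 from −0.0549 to 0.0442 and G6pc from −0.0651 to 0.15. For the diet with extract, values ran for Pcx from −0.17 to 0.0106. For the extract on the high-fat diet, values ran for Pck1 from −0.10 to 0.0951, G6pc from −0.12 to 0.24 and Gbe1 from −0.19 to 0.0549.

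Counts of all genes past the threshold ranged from 1 to 15 for the diet without extract (4 as reported), 2 to 31 and 10 to 76 for the extract on the high-fat and low-fat diet (8 and 35), 1 to 11 for the average diet effect (5) and 34 to 173 for the average extract effect (58), with all arrays kept. No pairing of the arrays by replicate number was seen. Correlations of same-numbered arrays' deviations lay between −0.13 and 0.11, and 5 of 12 arrays correlated best with their own number. The median correlation was −0.012 for same-numbered and −0.006 for other pairs. With so few arrays per group, a pairing is not excluded by these values. Among the list genes, over alternatives with all arrays kept, Fgf21 and Thrsp passed in 5 of 10 each on the low-fat diet, Insig1 in 8 and Fasn in 9; on average Fgf21 passed in 7 of 9, and Pdk4 and Insig1 in 8 each. With the replicate block 0 members passed in each comparison, and 5, 5, 20, 0, 0, 5 and 43 genes in all for the diet without extract, the extract on the high-fat and low-fat diet, the diet with extract, the difference of extract effects and the average diet and extract effects.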
